A study of Mus musculus with 4 samples.

Results

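The genes described are 30 genes of glycolysis, the pentose phosphate pathway and the fate of pyruvate, taken by symbol from the 32285 genes of the deposited matrices, and all 30 were found. They were followed in 4 single-cell RNA libraries of mouse CD8 T cells. The symbol Aldoa stands under 2 gene identifiers, of which ENSMUSG00000030695 was used; the other held 1, 0, 1 and 0 UMIs (unique molecular identifiers, each counting 1 captured RNA molecule) in the 4 libraries.

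Glycolysis turns glucose into pyruvate in the cytosol: transporters bring glucose in, hexokinase and phosphofructokinase commit it, and the later enzymes recover energy as ATP. Pyruvate is reduced to lactate by lactate dehydrogenase and exported, or enters the mitochondria through pyruvate dehydrogenase, which Pdk1 inhibits, while the pentose phosphate branch supplies NADPH and ribose for nucleotides. T cells that are activated through the T cell receptor raise glycolysis, in part through the transcription factors Myc and HIF-1, and resting and memory T cells use it less.

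The study, by its title, concerns progenitor exhausted CD8 T cells and engagement of the T cell receptor. The labels compare M9 (high affinity GP33) with C6M9 (low affinity GP33), GP33 being a peptide of a virus. All 4 libraries came from CD44+ CD90.1+ CD8+ cells sorted out of tumour-draining lymph nodes of C57BL/6 mice on day 14 after the tumour was implanted, so the cells of both groups came from tumour-bearing mice. The age of the mice and the kind of tumour are given in none of the sources used. Cells of 10 mice (M9) and 35 mice (C6M9) were pooled, and the labels do not say how mice were divided between the 2 libraries of a group. Each SD and SE below, and each p of a comparison of the groups, thus rests on the spread between libraries, which may be technical. The SD of a level in a cell state is taken over all 4 libraries, so it also holds any difference between the groups. The SE and p of edgeR also draw on a trend of spread over all genes. The p of unequal differences between cell states rests instead on how the states vary within these same 4 libraries.

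The files held 1325 to 4586 barcodes and 33680632 to 79174624 UMIs per library, and no pair of libraries shared more than 4 barcodes. After filters, 9923 T cells remained (4101 and 1199 in M9 replicates 1 and 2, 2889 and 1734 in C6M9 replicates 1 and 2), with medians of 13205, 20024, 13993 and 21476 UMIs. The T cell genes were present: Cd3e lay between 618 and 776 UMIs per 1000000 (CPM) and Cd8a between 518 and 581. Of the other cell types looked for, summed markers of CD4 and regulatory T cells were 460 and 389 CPM in M9 and 203 and 239 in C6M9, with 3 of 7 genes lower. Those of NK and innate lymphoid cells were 186 and 169 against 85.6 and 84.3, with 2 of 5 tested genes lower. B cell markers summed to 328 to 407, with 2 of 16 tested genes higher in C6M9 and 1 lower. Gamma delta T cell markers summed to 384 to 428, and red cell and platelet markers to 0.0587 to 0.137 with Pf4 and Ppbp at 0. Myeloid and dendritic cell markers summed to 172 to 209, with 1 of 6 tested genes lower and Adgre1, Siglech and Cd209a at 0. Over all genes the same test (edgeR, adjusted p under 0.05) called 1.59% higher and 4.04% lower in C6M9. The CD4 and regulatory T cell list includes Izumo1r, which also leads a cluster described below. In that cluster Cd4 was seen in 0.125% and Cd8a in 95.6% of cells, so this sum is not specific to CD4 cells. The part of these cell types in the results below was not tested.

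The T cells formed 10 clusters, made without the 30 genes and without the related pathway genes, and each is named here by a leading gene: Izumo1r, Tnfrsf4, Il7r, Klre1, Ifit3, S100a4, Myc, Gzma, and a Ccnb2-led and a histone-led cluster, both cycling. Their shares differed between the groups. Cycling cells made up 11.2% and 15.7% of the T cells in M9 against 19.2% and 20.2% in C6M9, and Myc-led cells 5.41% and 4.25% against 2.39% and 3.98%. Gzma-led cells made up 2.76% and 1.00% against 4.53% and 3.81%. Tnfrsf4-led cells took 28.3% and 20.8% of M9 and 1.45% and 1.56% of C6M9, and Izumo1r-led cells 27.7% and 20.8% against 4.47% and 4.84%. Il7r-led cells took 4.22% and 7.17% against 26.7% and 27.9%.

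Promoters of 4 members are printed because these genes carry the contrasts that follow: Hk2 was called between the groups over all T cells, Pdk1 within 1 cell state, Ldha varied widely between cell states, and Gpi1 hardly varied. Each window runs from 250 bases before to 50 after a RefSeq start (build GRCm38.p6), 5′ to 3′ on the gene's strand, and capitals mark CACGTG, the E-box that Myc binds, and ACGTG or GCGTG, the core that HIF-1 binds, on either strand. Every CACGTG also contains ACGTG. RefSeq gives 2 starts each for Ldha and Pdk1, and the upstream one is shown. The windows are chr6:82774405-82774704 on the minus strand for Hk2, chr7:46845554-46845853 on the plus strand for Ldha, chr2:71872974-71873273 on the plus strand for Pdk1 and chr7:34230287-34230586 on the minus strand for Gpi1.
Hk2: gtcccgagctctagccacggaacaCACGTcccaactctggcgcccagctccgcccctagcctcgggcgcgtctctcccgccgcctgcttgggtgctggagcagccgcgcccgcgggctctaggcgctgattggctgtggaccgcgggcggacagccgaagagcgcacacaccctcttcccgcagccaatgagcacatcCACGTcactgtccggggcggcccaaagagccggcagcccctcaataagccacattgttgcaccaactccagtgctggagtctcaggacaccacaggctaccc
Ldha: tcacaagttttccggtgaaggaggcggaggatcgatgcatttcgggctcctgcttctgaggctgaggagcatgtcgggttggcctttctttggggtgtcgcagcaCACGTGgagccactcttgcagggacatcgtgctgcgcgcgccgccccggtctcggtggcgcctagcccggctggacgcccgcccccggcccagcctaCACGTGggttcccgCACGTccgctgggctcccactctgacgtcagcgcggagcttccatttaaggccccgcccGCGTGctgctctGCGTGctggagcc
Pdk1: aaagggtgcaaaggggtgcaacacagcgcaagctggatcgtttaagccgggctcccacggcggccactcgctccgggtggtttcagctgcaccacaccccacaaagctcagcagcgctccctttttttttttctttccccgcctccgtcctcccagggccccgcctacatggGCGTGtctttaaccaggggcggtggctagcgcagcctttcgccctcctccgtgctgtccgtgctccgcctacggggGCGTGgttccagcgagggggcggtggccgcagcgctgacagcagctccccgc
Gpi1: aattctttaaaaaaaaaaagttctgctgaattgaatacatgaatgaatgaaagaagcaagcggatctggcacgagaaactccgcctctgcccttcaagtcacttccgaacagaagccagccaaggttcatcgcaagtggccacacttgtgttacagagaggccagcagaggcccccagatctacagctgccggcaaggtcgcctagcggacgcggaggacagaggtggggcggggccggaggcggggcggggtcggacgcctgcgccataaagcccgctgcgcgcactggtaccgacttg
The Ldha window held CACGTG at 2 places, starting 145 and 48 bases before the start of transcription. It also held ACGTG outside these at 1 place and GCGTG at 2 places. The Hk2 window held ACGTG at 2 places, the Pdk1 window GCGTG at 2 places, and the Gpi1 window none of the 3 motifs. The windows at the other starts, not printed, held GCGTG at 2 places and no CACGTG for Ldha, and none of the 3 motifs for Pdk1.

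Of the members, 29 were in the RefSeq promoter table. CACGTG stood in at least 1 promoter of 3 of them (Pfkm, Ldha and Slc16a1), 10.3%, beside 8.09% of the 27025 genes in the table. ACGTG was present in 15 of 29 (51.7%), beside 21.8% of genes, and GCGTG in 20 of 29 (69.0%), beside 35.2%. A gene with more promoters has more windows to match. Counted by promoter, CACGTG stood in 7.14% of 42 member promoters, beside 7.15% of all 32851. ACGTG stood in 40.5% beside 19.6%, and GCGTG in 59.5% beside 32.4%. These are matches of letters in a fixed window and do not show binding.

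The first comparison set C6M9 against M9 with all T cells of a library summed. Hk2, the inducible hexokinase that traps glucose in the cell, fell in C6M9, and most other members lay slightly higher there without passing the test. Hk2 stood at 9.96 and 11.2 CPM (scaled by TMM, which corrects library totals for a few dominant genes) in M9 and at 6.82 and 7.70 in C6M9, from 382 to 715 UMIs per library, and the groups did not overlap. The means were 10.6 ± 0.885 (SD, n = 2) for M9 and 7.26 ± 0.622 for C6M9, and the log2 difference was -0.54 ± 0.12 (SE; edgeR quasi-likelihood test, Benjamini-Hochberg adjusted p = 0.0397). The gene lies on chromosome 6 at 82725025 to 82774454 (GRCm38, GENCODE release M21, minus strand). Hk1, the hexokinase of most resting cells, stood at 46.0 and 44.1 against 45.04 and 41.9 CPM, and the groups overlapped.

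Hk2 was the 1 member of 30 called by edgeR over all T cells, where 5.63% of 13654 genes were called (1.59% higher and 4.04% lower in C6M9), so the members' share of 1 in 30 lies under this background. No member rose; at an unadjusted p under 0.05 there were 11 of 30 members (36.7%), 10 of them higher in C6M9, beside 23.9% of all genes. DESeq2 called 6 of 30, namely Gapdh, Hk2, Ldha, Pdk1, Pgam1 and Tpi1, beside 8.77% of 12617 genes. The log2 difference was above 0 in 25 members and below 0 in 5, with a median of 0.20, beside a median of -0.02 over all genes, of which 47.8% were above 0. For 21 members both C6M9 libraries were above both M9 libraries, which held for 26.1% of all genes. For 3 members (Hk2, Pfkm and Ldhb) both were below, beside 29.6% of all genes.

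Hk2 was highest in the Myc-led cells. With these left out its difference was -0.42 (edgeR adjusted p = 0.0789), and with the 8 tested states weighted alike -0.60 (limma adjusted p = 0.135). Leaving out C6M9 replicate 1 gave -0.45 (edgeR adjusted p = 0.284), C6M9 replicate 2 -0.62 (0.0893) and M9 replicate 2 -0.45 (0.05004).

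**Figure D1:**
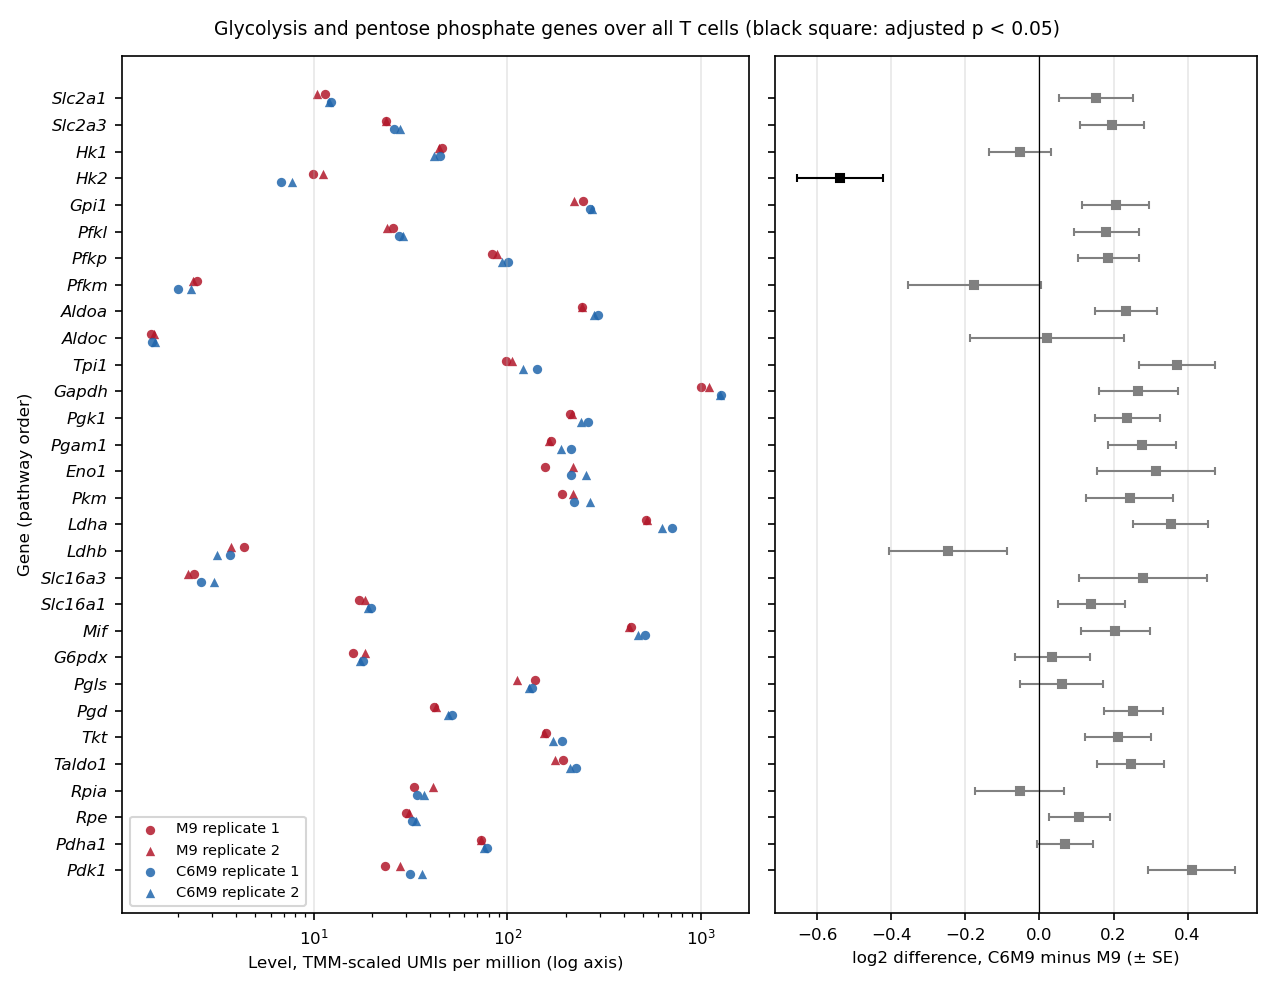
The left panel plots the level of each member over all T cells in each of the 4 libraries (TMM-scaled CPM, log axis; red M9, blue C6M9), and the right panel the log2 difference C6M9 minus M9 with its SE as bars. Hk2, at -0.54, is the only member past the adjusted threshold, and 25 of 30 members lie above 0.

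The glucose transporters were higher in both C6M9 libraries. Slc2a1, which encodes GLUT1, stood at 11.4 and 10.4 CPM in M9 and 12.3 and 12.1 in C6M9 (log2 difference 0.15 ± 0.10). Slc2a3, which encodes the high-affinity transporter GLUT3, stood at 23.6 in each M9 library and at 26.0 and 27.9 in C6M9 (0.19 ± 0.09). Neither passed the test (edgeR adjusted p = 0.395 and 0.220), and Slc2a3 gave 67.3% to 69.9% of the pair's UMIs in each library. These 3′ libraries count a molecule once whatever its length, though capture can differ between genes.

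Among the first enzymes, the phosphofructokinases set the committed step. Pfkp, the platelet type, gave most of their UMIs, at 83.2 and 88.3 CPM in M9 and 100.7 and 94.2 in C6M9 (0.19 ± 0.08). Pfkl, the liver type, stood at 25.8 and 23.9 against 27.6 and 28.8 (0.18 ± 0.09). Pfkm, the muscle type, was scarce at 2.49 and 2.38 against 2.00 and 2.33 (-0.18 ± 0.18), and none of the 3 passed. Gpi1, which interconverts the hexose phosphates, was 0.21 ± 0.09 higher on the log2 scale and Aldoa, the main aldolase, 0.23 ± 0.08, while Aldoc was near its detection limit at 1.45 to 1.52 CPM.

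The later enzymes include Gapdh, whose transcript was the most abundant of the members. Gapdh, which oxidises glyceraldehyde 3-phosphate, stood at 992 and 1098 CPM in M9 and 1264 and 1251 in C6M9, a log2 difference of 0.27 ± 0.11 (edgeR adjusted p = 0.178). Tpi1, which interconverts the triose phosphates, stood at 98.1 and 105 against 143 and 120 (0.37 ± 0.10, adjusted p = 0.0812, edgeR). Pkm, the pyruvate kinase that ends the pathway, stood at 192 and 218 against 219 and 265 (0.24 ± 0.12). The groups were separate for these 3 genes, but for Tpi1 and Pkm by less than the distance between the libraries of a group. Pgk1 and Pgam1 differed by 0.24 and 0.28, and Eno1 by 0.31 with overlapping groups (157 and 218 against 213 and 254). Several of these genes have near-identical processed pseudogenes, with which their UMIs could be shared.

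At the lactate step, Ldha stood at 522 and 524 CPM in M9 and at 710 and 628 in C6M9, a log2 difference of 0.35 ± 0.10 (edgeR adjusted p = 0.0873). Ldha encodes the lactate dehydrogenase subunit that favours making lactate, and its levels in the M9 libraries were nearly alike. Ldhb, the subunit of oxidative tissues, stood at 4.39 and 3.73 against 3.71 and 3.17 (-0.25 ± 0.16), so that Ldha gave 99.2% to 99.5% of the pair's UMIs in each library. The lactate carriers Slc16a1 (MCT1; 17.1 and 18.4 against 19.9 and 19.2) and Slc16a3 (MCT4; 2.41 and 2.26 against 2.63 and 3.07) were both slightly higher in C6M9 without passing the test. Mif, which encodes a macrophage migration inhibitory cytokine, stood at 435 and 422 against 514 and 473 (0.20 ± 0.09).

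In the pentose phosphate branch, the oxidative entry enzyme G6pdx overlapped between the groups, at 16.0 and 18.5 CPM in M9 and 17.95 and 17.3 in C6M9. Pgd, which makes the second NADPH of the branch, stood at 41.7 and 43.0 against 51.8 and 49.2 (0.25 ± 0.08, edgeR adjusted p = 0.112). The carbon-shuffling enzymes followed at similar size: Tkt stood at 158 and 154 against 191 and 171, and Taldo1 at 193 and 176 against 226 and 211. Pgls, Rpia and Rpe differed by 0.06, -0.05 and 0.11 on the log2 scale. No gene of the branch passed the test.

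At the entry of pyruvate into the mitochondria, Pdk1, the kinase that shuts pyruvate dehydrogenase, stood at 23.3 and 27.8 CPM in M9 and 31.4 and 36.4 in C6M9. This was the largest positive difference of the members, 0.41 ± 0.12 on the log2 scale, and missed the threshold (edgeR adjusted p = 0.0867; DESeq2 adjusted p = 0.0199). Pdk1 was highest in Il7r-led cells, whose share was higher in C6M9, and within them it differed by -0.01; the part of that share in the difference over all T cells was not tested. Pdha1, a subunit of the dehydrogenase itself, differed by 0.07. Among UMIs of the kinases Pdk1, Pdk2 and Pdk3, Pdk1 took 39.0% and 44.97% in M9 and 50.1% and 54.4% in C6M9 (exact two-sided permutation p = 0.333, the smallest that 2 against 2 libraries can give).

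A limma fit weighted the 8 tested states alike; it left out Tnfrsf4-led and Gzma-led cells and used log2 CPM, so it differed from the edgeR fit in more than the weights. Several positive differences were smaller in it. Tpi1 differed by 0.37 over all T cells and by 0.02 in that fit, and Ldha by 0.35 against 0.16. Gapdh went from 0.27 to 0.10 and Pdk1 from 0.41 to 0.28. With equal weights 22 members were above 0 and the median was 0.09. Without the cycling cells Tpi1 differed by 0.53 and Ldha by 0.44, both called by edgeR together with Hk2. The part of the state mix in these differences was not tested further.

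Across the states, the highest mean was at least 2 times the lowest for 22 of the 30 members. These are descriptions, since the clusters were made from the same cells. Counts of members by state, here and below, were not made for all genes, so they are not shown to be particular to the members. The median log2 ratio of the 30 members to the other T cells of a library was 0.55 ± 0.02 (SD over 4 libraries) in Gzma-led cells, 0.33 ± 0.07 in Myc-led, 0.27 ± 0.13 in histone-led and 0.20 ± 0.08 in Ccnb2-led cells. The Ccnb2-led value turned to -0.060 with the members used in clustering and to -0.0069 with doublets kept. The median was below 0 in the other 6, from -0.20 ± 0.15 in S100a4-led to -0.47 ± 0.05 in Il7r-led cells. The median over all genes moved by -0.12 in Il7r-led, -0.11 in Myc-led and -0.11 in histone-led cells under the same scaling and by under 0.1 in the others.

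**Figure D2:**
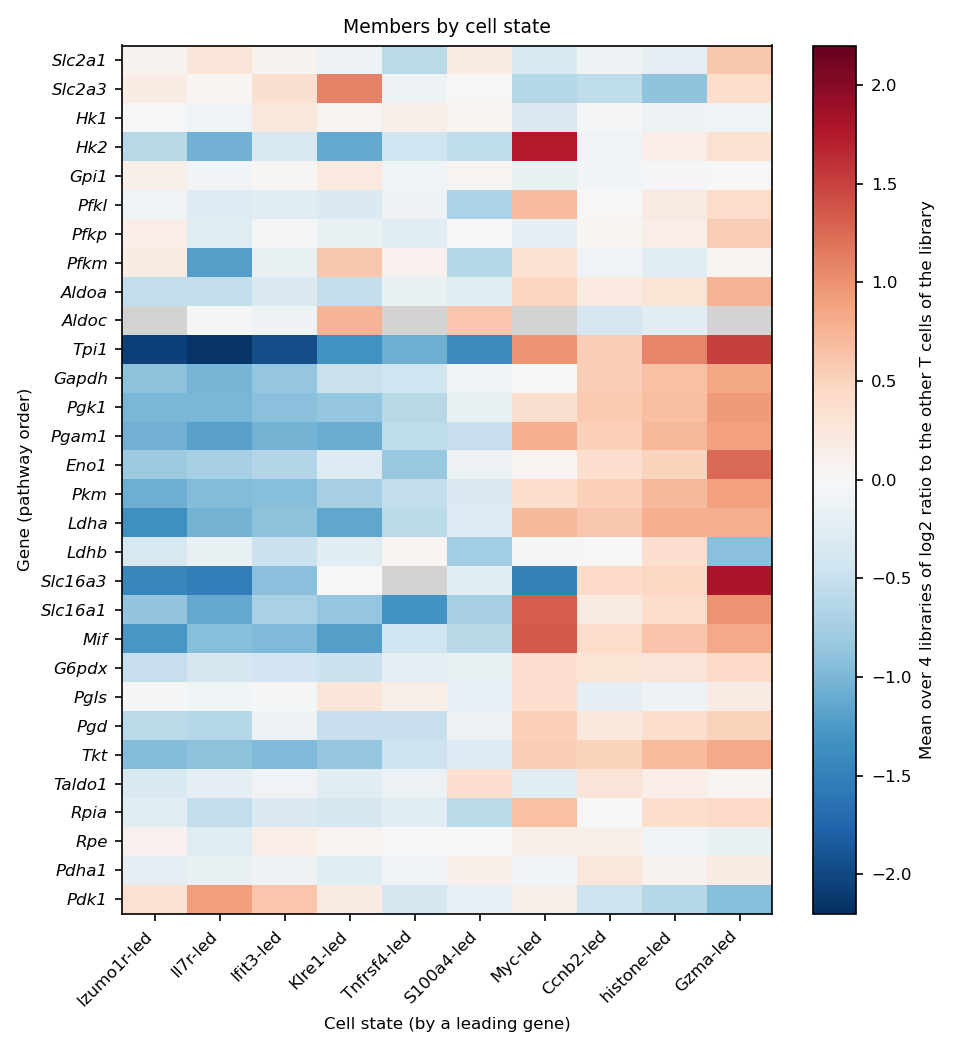
Each cell of the map gives the mean over the 4 libraries of the log2 ratio of a member (vertical axis) in a state (horizontal axis) to the other T cells of the same library; grey marks a pair for which at least 1 library held no UMI. Tpi1 and the other later glycolysis genes, and also Ldha and Mif, change from blue to red from left to right. Hk1, Gpi1 and Rpe stay pale, and Pdk1 runs the other way.

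Ldha followed the states in this order: from a mean of 237 ± 35.9 CPM in Izumo1r-led and 258 ± 57.8 in Klre1-led cells to 968 ± 105 in Myc-led and 980 ± 94.2 in Gzma-led cells. Its 4 highest states, with histone-led and Ccnb2-led cells at 948 and 849, overlapped one another and lay above the other 6 in each library. Over the 10 states, 14 of the other members had a Spearman rho above 0.8 with Ldha, among them Tkt and Pgd (0.98 each), Tpi1 (0.95) and Hk2 (0.92). The states share their libraries and differ in depth, with median UMIs per cell from 10858.5 (Izumo1r-led) to 46636.5 (histone-led), and Ldha's own rho with the median UMIs was 0.93. The part of depth in this was not tested.

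Tpi1 had the widest range of the members, 10.2 times from the lowest to the highest state. It stood at 27.4, 28.8, 28.2 and 29.8 CPM (M9 replicates 1 and 2, C6M9 replicates 1 and 2) in Izumo1r-led cells and at 240, 269, 353 and 298 in Gzma-led cells. Gapdh stood at 550, 541, 674 and 692 in Izumo1r-led cells and at 1793, 1914, 2052 and 2055 in Gzma-led cells. In both genes no library of the low state came near any of the high one.

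Myc-led cells, which were led by Xcl1, Srm, Tnfrsf9 and Myc, had the highest mean of 8 members. These were Hk2, Pfkl, Slc16a1 and Mif, and in the pentose phosphate branch Pgls, Pgd, Rpia and Rpe. Hk1 had its lowest mean there (36.6 CPM), and the means of Slc2a1 and Slc2a3 were among their lowest. Hk2 averaged 28.0 ± 10.3 CPM there and 10.7 ± 2.40 in Gzma-led cells, the next state, and the 2 did not overlap. In Myc-led cells Hk2 gave 43.5%, 53.5%, 36.1% and 36.2% of the hexokinase UMIs, against 9.06% to 20.5% as means of the other states. Pfkl was also highest there at 42.4 ± 5.57, Slc16a1 at 44.6 ± 7.86 and Mif at 1112 ± 94.0 CPM. Gzma-led cells came next in each, at means of 34.6, 34.8 and 780, and overlapped for Pfkl and Slc16a1 but not for Mif. Slc16a3, the other lactate carrier, was instead low at 1.03 ± 0.351 CPM, and gave 2.31% of the pair's UMIs there beside 12.2% over all T cells. Its mean was lower still in Il7r-led and in Tnfrsf4-led cells (0.828 in the latter).

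Gzma-led cells, led also by Gzmb, had the highest mean of 13 members. Several of these overlapped the next state, Gapdh, Pkm and Ldha among them. Slc16a3 averaged 7.67 ± 1.07 CPM in them against 3.58 ± 1.01 in histone-led cells, the next state, with no overlap, from 7 to 52 UMIs per library. Eno1 averaged 455 ± 80.9 against 288 in histone-led cells, also without overlap. M9 replicate 2 held only 12 Gzma-led cells, and the groups were not compared in this state.

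Pdk1 and Slc2a3 had their highest levels elsewhere, with a Spearman rho with Ldha of -0.68 and -0.44 over the 10 states, and 4 other members (Aldoc, Gpi1, Hk1 and Pfkm) also had a negative rho. Slc2a3 was highest in Klre1-led cells, which carry killer lectin receptor genes, at 44.0, 36.2, 61.7 and 44.3 CPM, and lowest in histone-led cells at 14.0, 12.3, 16.9 and 20.3. Gzma-led cells came next to the highest at 38.5, 34.2, 28.2 and 29.4 and overlapped them. It gave 82.3% of the GLUT UMIs in Klre1-led and 59.3% in histone-led cells. Pdk1 was highest in Il7r-led cells at 51.5, 55.4, 53.5 and 57.0 CPM, above each library of any other state, and lowest in Gzma-led cells at 13.2, 12.1, 15.7 and 25.5. Pdk3 took the larger share of the kinase UMIs where Pdk1 was low, 66.7% in histone-led and 68.3% in Gzma-led cells, and 28.1% in Il7r-led cells.

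Other members hardly followed the states: in 8 of 30 the highest state was under 2 times the lowest. Gpi1 lay between means of 233 and 268 CPM (1.15 times) and Hk1 between 36.6 and 49.9 (1.36 times). Rpe, which epimerises pentose phosphates, ranged by 1.27 times and Pgls, which opens the lactone of the oxidative branch, by 1.43 times. In Gpi1 the libraries differed more than the states: both C6M9 libraries were above both M9 libraries in 9 of 10 states, and M9 replicate 2 was the lowest in each state.

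**Figure D3:**
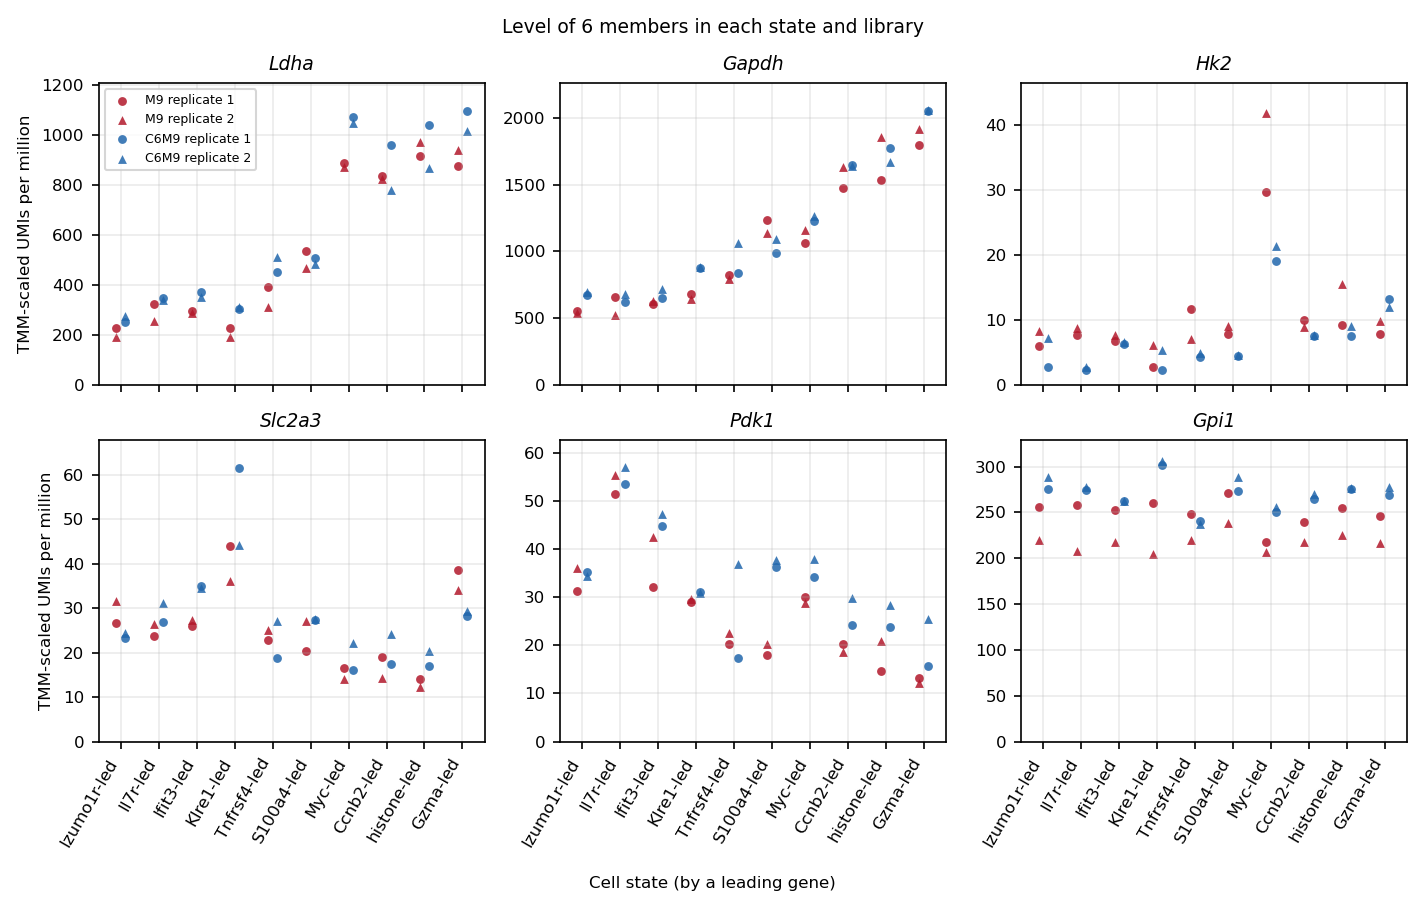
The 6 panels plot the level of Ldha, Gapdh, Hk2, Slc2a3, Pdk1 and Gpi1 (TMM-scaled CPM, vertical axis from 0) in each of the 10 states and 4 libraries (red M9, blue C6M9; circles replicate 1, triangles replicate 2). Hk2 stands out in Myc-led and Pdk1 in Il7r-led cells, Slc2a3 is highest in Klre1-led cells with overlap, and Gpi1 is nearly flat.

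Within states, 8 clusters with at least 50 cells in every library were compared between the groups; the Tnfrsf4-led one, with 42 and 27 cells in C6M9, and the Gzma-led one were not. Pdk1 rose in S100a4-led cells and Hk2 fell in Myc-led cells, and these were the 2 calls of edgeR. Pdk1 stood at 18.1 and 20.2 CPM in the M9 and at 36.2 and 37.8 in the C6M9 libraries of the S100a4-led cells, with no overlap, from 49 to 233 UMIs per library. The log2 difference was 0.93 ± 0.18 (edgeR adjusted p = 0.00310), in a state where 2.05% of 9811 genes were called (0.673% higher and 1.38% lower in C6M9) and 1 of 27 members. It was 0.81 without M9 replicate 1 (edgeR adjusted p = 0.153) and had an adjusted p of 0.107 by DESeq2. Pdk1 took 36.7% and 43.8% of the kinase UMIs in M9 and 60.1% and 60.9% in C6M9 there.

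Hk2 stood at 29.7 and 41.9 CPM in M9 and 19.2 and 21.4 in C6M9 in the Myc-led cells, from 43 to 145 UMIs per library. The groups did not overlap, and the log2 difference was -0.78 ± 0.22 (edgeR adjusted p = 0.0465). In this state 4.82% of 9182 genes were called (2.29% higher and 2.54% lower in C6M9) and 1 of 27 members, so the members' share lies under the background. The call was lost without M9 replicate 2 (-0.54, adjusted p = 0.201, edgeR), without C6M9 replicate 1 (-0.70, 0.235) and without C6M9 replicate 2 (-0.88, 0.192), and by DESeq2 (-0.81, 0.393). It was lost too with the members used in clustering (-0.60, 0.126) and with doublets kept (-0.71, 0.0751).

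Hk2 had a negative log2 difference in each of the 8 states, from -0.20 ± 0.49 in Klre1-led to -1.71 ± 0.40 in Il7r-led cells (edgeR adjusted p = 0.906 and 0.1505). In Il7r-led cells it stood at 7.75 and 8.79 CPM in M9 and 2.38 and 2.83 in C6M9, from 13 to 23 UMIs per library. Over all 10 states, both C6M9 libraries were below both M9 libraries in 7 and above them in 1, the Gzma-led cells (7.80 and 9.93 against 13.3 and 11.96 CPM), which were not tested. Between the states, the Hk2 difference did not pass the test of unequal differences (edgeR adjusted p = 0.275).

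In the other 6 states edgeR called no member. Of all genes it called 0.171% in Izumo1r-led (0.0963% higher, 0.0749% lower in C6M9), 0.191% in Il7r-led (0.0501% and 0.14%) and 0.546% in Klre1-led cells (0.179% and 0.367%). It called 0.589% in Ccnb2-led (0.267% and 0.322%), 1.29% in histone-led (0.72% and 0.565%) and 2.69% in Ifit3-led cells (0.518% and 2.17%). At an unadjusted p under 0.05 the members numbered 6 of 27 in Izumo1r-led (beside 8.10% of all genes), 3 of 27 in Il7r-led (6.69%) and 8 of 30 in Klre1-led cells (13.6%). They numbered 2 of 30 in Ccnb2-led (9.20%), 3 of 30 in histone-led (14.2%) and 6 of 28 in Ifit3-led cells (15.1%), so in both cycling states they lay under the background. DESeq2 called Gapdh and Ldha in Klre1-led cells, where it gave an adjusted p to 580 genes alone, 4 of them members, and called 8.1% of these. On simulated counts of these shapes the test recovered 20% to 49% of genes changed 1.5-fold and 54% to 86% of those changed 2-fold.

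Whether the group difference was unequal between the states was tested for all genes together. In this test edgeR called 6.41% of 11200 genes and 5 of the 30 members: Mif (adjusted p = 0.00344), Pgk1 (0.00417), Gapdh (0.00477), Ldha (0.0113) and Pdk1 (0.0128). The other 25 did not pass, and Pfkp came nearest (edgeR adjusted p = 0.0579).

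Mif, Pgk1, Gapdh and Ldha shared their extremes: the difference was largest in Klre1-led and lowest in S100a4-led cells. Ldha stood at 229 and 191 CPM in M9 and 303 and 310 in C6M9 in Klre1-led cells (0.47 ± 0.11), and at 537 and 465 against 509 and 481 in S100a4-led cells (-0.05 ± 0.12). Pgk1, which makes the first ATP of the pathway, stood at 109 and 86.8 against 158 and 141 in Klre1-led cells (0.52 ± 0.12) and at 265 and 214 against 190 and 189 in S100a4-led cells (-0.37 ± 0.13). The groups were separate in Klre1-led cells for both genes, and in S100a4-led cells for Pgk1.

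Gapdh differed by 0.34 ± 0.11 in Klre1-led and by -0.22 ± 0.13 in S100a4-led cells, where it stood at 1236 and 1137 CPM in M9 and 984 and 1091 in C6M9. Mif differed by 0.36 ± 0.13 and -0.21 ± 0.14 in the same states. Without M9 replicate 1 the S100a4-led differences of Ldha and Mif were 0.036 and 0.051. In both cycling states these 4 genes differed by -0.14 to 0.07. Pdk1 had the opposite pattern, with its largest difference in S100a4-led cells and values of -0.01 ± 0.15 in Il7r-led, 0.01 ± 0.15 in Klre1-led, 0.46 ± 0.16 in Ccnb2-led and 0.56 ± 0.18 in histone-led cells.

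Without C6M9 replicate 2 only Pgk1 of the members was called between states, and without C6M9 replicate 1 only Ldha and Mif. With doublets kept the calls were Pfkp and Pgk1. S100a4-led cells had no cluster of their own when doublets were kept or the members were used in clustering, so those values rest on 1 clustering.

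**Figure D4:**
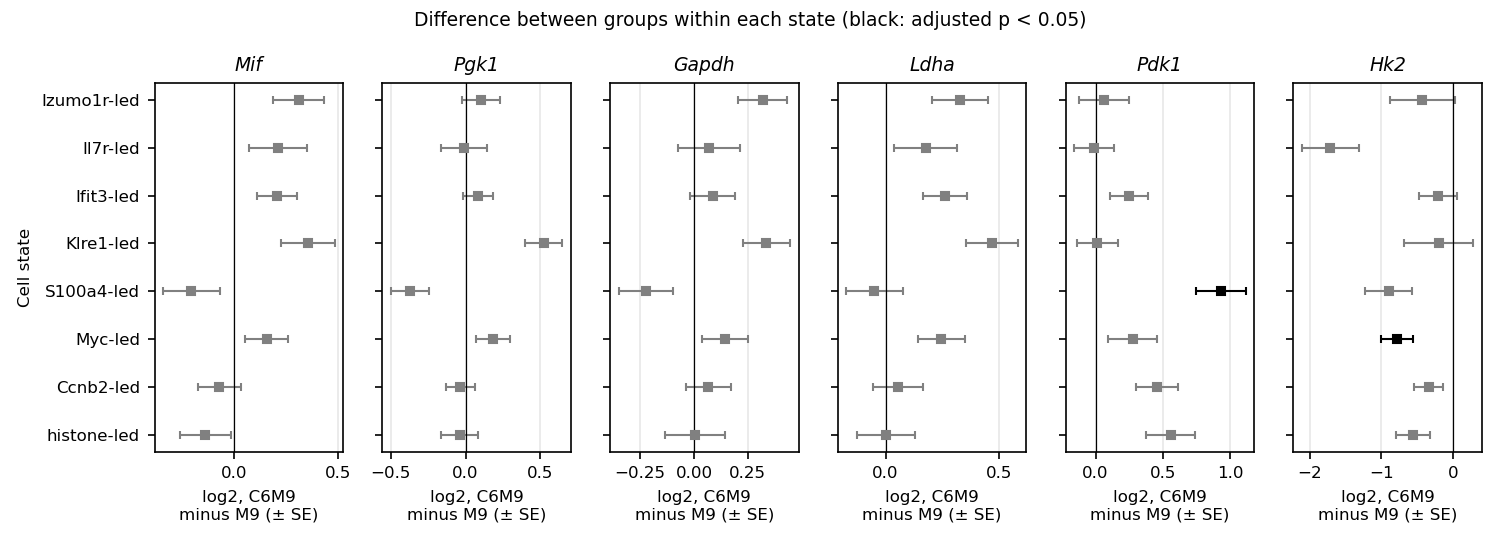
Each panel plots, for a member, the log2 difference C6M9 minus M9 (horizontal axis, bars ± SE) within each of the 8 states compared, with black for an adjusted p under 0.05; the horizontal scales differ between panels. Hk2 lies below 0 in every state, Pdk1 is highest in S100a4-led cells at 0.93, and Mif, Pgk1 and Gapdh lie lowest there.

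In shares of cells, Hk2 was sparse. Each cell was drawn down to 2000 UMIs to make libraries comparable, which left out 2 to 9 cells per library. Hk2 was then seen in 1.69% and 1.76% of the T cells in M9 and in 0.623% and 1.45% in C6M9, and before thinning in 11.4%, 14.6%, 10.1% and 14.2%. Ldha was seen in 48.7% and 50.7% of M9 and in 56.6% and 57.7% of C6M9 cells, and Pdk1 in 5.57% and 6.95% against 6.89% and 8.52%. The groups were separate for Hk2 and Ldha (exact two-sided permutation p = 0.333, the smallest possible) and overlapped for Pdk1. The only other cells looked at were the 124 B cell-like ones, with a median of 11974.5 UMIs and Cd8a seen in 54.0%. Of these, 10.5% had a UMI of Hk2. They give no measure of free RNA, so a T cell's single UMI cannot be told from free RNA.

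Other genes of the pathways were taken from 4 lists. Of 40 further genes of glycolysis and glucose handling 26 passed the filter, and Slc16a6, a monocarboxylate carrier, rose from 6.63 and 6.19 to 9.33 and 9.46 CPM, 0.55 ± 0.11 on the log2 scale (edgeR adjusted p = 0.0274). Of 44 regulators tested out of 48, 1 rose and 2 fell. Over all genes edgeR called 5.63% (1.59% higher and 4.04% lower in C6M9), which is the share to set beside each list. Txnip, which restrains glucose uptake, rose from 122 and 107 to 155 and 154 CPM (0.43 ± 0.09, edgeR adjusted p = 0.0356). Pfkfb3, which makes the activator of phosphofructokinase, fell from 15.5 in each M9 library to 10.7 and 11.2 (-0.50 ± 0.09, edgeR adjusted p = 0.0234), and Mxd1, a Myc antagonist, fell by 0.51 (edgeR adjusted p = 0.0489).

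Of 17 genes for the entry of pyruvate 15 were tested, and Me2, the mitochondrial malic enzyme, rose by 0.44 (edgeR adjusted p = 0.0254). Of 15 further pentose phosphate genes 14 were tested, and edgeR called none, with 1 at an unadjusted p under 0.05. The medians of the 4 lists were 0.11, -0.02, 0.08 and 0.13 on the log2 scale for glucose handling, regulators, pyruvate entry and pentose phosphate genes, beside -0.02 over all genes. Myc itself differed by -0.03, at 23.5 and 18.9 CPM in M9 and 19.5 and 22.2 in C6M9, and Hif1a by -0.36, at 113 and 95.3 against 77.6 and 84.2 (edgeR adjusted p = 0.910 and 0.0837). Within states Hif1a, which encodes a subunit of HIF-1, fell by 0.53 in S100a4-led and by 0.46 in Ifit3-led cells (edgeR adjusted p = 0.0291 and 0.0433).

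Within states, Txnip, Hif1a, Ddit4 and Mxd4 were the genes of the lists that passed, all regulators. Of the regulators 2 of 40 rose in histone-led cells (beside 1.29% of all genes called) and 2 of 36 in Myc-led cells (4.82%). In Ifit3-led (2.69%) and S100a4-led cells (2.05%) 1 of 37 rose and 1 fell. Ddit4 rose by 0.84 in histone-led cells (edgeR adjusted p = 0.00722) and Mxd4, a Myc antagonist, by 0.66 in Myc-led cells (0.0181). Txnip rose by 1.14 ± 0.18 in Myc-led cells (edgeR adjusted p = 0.000258), the state in which Hk2 fell, from 39.6 and 29.4 to 65.0 and 92.8 CPM. It rose by 1.10 in histone-led, 0.63 in S100a4-led and 0.40 in Ifit3-led cells. The difference of Txnip varied between the states (edgeR adjusted p = 0.000934), as did those of Mxd4, Mdh1 and Foxo1 from the lists. These were 3 of 39 regulators and 1 of 22 glucose handling genes, beside 6.41% of all genes. Over the states Txnip was highest in Klre1-led cells at 260 ± 20.5 CPM and lowest in Myc-led cells at 56.7 ± 28.3, whereas Hk2 was lowest in the former and highest in the latter. In Il7r-led cells, where the Hk2 difference was largest (-1.71), edgeR called no regulator. A relation between Txnip and Hk2 was not tested.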

How the data were processed

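Per the file headers, the deposited matrices hold raw UMI counts, 1 matrix per library, made by the authors with Cell Ranger 6.0.0 on mm10 per the submitters' processing notes. The annotation release is not given in the sources used here. Libraries served as replicates, 2 in each group.

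Of 11113 barcodes, 10324 passed filters of 500 genes, 1000 UMIs and 10% mitochondrial UMIs. Scrublet in scanpy 1.11.5 scored doublets; its own threshold marked under 0.5% of cells, so the highest scores were left out at 0.8% per 1000 barcodes (277 cells), as were 124 B cell-like cells. Cells were clustered on 2000 variable genes without the 30 members and the 4 pathway lists (30 components, 15 neighbours, Leiden resolution 0.6). Marker rules gave each cluster a name, and some names fell to several clusters. All were described by leading genes instead, a choice made after they were seen.

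Sums of UMIs for each library, of all T cells or of 1 cluster, were tested two-sided by quasi-likelihood in edgeR 4.0.16 (R 4.3.3) after filterByExpr and TMM scaling, with Benjamini-Hochberg adjusted p under 0.05 over all genes as the call. Unequal differences between clusters were tested with library, cluster and cluster-by-group terms. DESeq2 1.42.0 and limma 3.58.1 (equal weights for the 8 tested clusters, log2 with a pseudocount of 1 CPM) gave alternatives. On simulated counts shaped like all T cells, 45% of genes changed 1.5-fold and 77% of those changed 2-fold were recovered, with 1.61% false calls (13654 genes). On counts shaped like single states 1.19% to 7.5% of calls were false, 5.83% for S100a4-led and 4.30% for Myc-led cells.

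By the rule for named genes, members past any test and the genes of the first, control and last steps have values in every library, and from the lists the genes past the test over all T cells are named. The members and lists were chosen with earlier results of these data known. The settings without Myc-led cells were added after seeing the data; Hif1a, Myc and the within-state Txnip values were named after their values were seen. Gene positions come from GENCODE M21, matched by identifier, and promoters from RefSeq.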

Additional observations from a re-analysis of the deposited data

Results flagged for a closer look

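For 5 members the difference between C6M9 and M9 was unequal between the cell states by edgeR's test of the state-by-group terms, where 6.41% of all genes passed: Pdk1 (adjusted p = 0.0128), Gapdh (0.00477), Ldha (0.0113), Mif (0.00344) and Pgk1 (0.00417). Pgk1 had its highest value in Klre1-led cells (0.52) and its lowest in S100a4-led cells (-0.37), Pdk1 its highest in S100a4-led (0.93) and its lowest in Il7r-led cells (-0.01). With 2 libraries per group no single library could be tested as an outlier.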

How the results depend on the processing

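Beside each count of members called stands the share of all genes called under the same setting. Over all T cells the count was 1 (5.63%), and it was 6 with DESeq2 (8.77%), 5 with no filter on low counts (9.58%), 3 without cycling cells (8.5%), 0 without Myc-led cells (5.45%), 3 without Myc-led and cycling cells (9.38%) and 0 with equal state weights (0.872%). When 1 library was left out it was 0 to 3 (1.67% to 9.99%). Within the 8 states together the count was 2 (1.51%), and 5 with no filter (1.57%), 1 with doublets kept (1.27%), and 1 to 10 when 1 library was left out (0.907% to 3.37%). For differences unequal between states it was 5 (6.41%), and 10 with no filter (7.12%), 2 with doublets kept (3.94%), and 1 to 6 when 1 library was left out (1.54% to 4.48%). The causes of these changes were not tested; leaving out a library leaves 1 in its group, which is then assumed to vary like the others.

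With the replicate block, 2 members were called over all T cells (Hk2 and Pdk1, beside 6.15% of genes) and 5 within states (2.17%). The labels do not pair the libraries. Over 13654 genes, the deviations of same-numbered libraries from their group means were hardly correlated (r = -0.06). In depth they went together, with median UMIs of 13205 and 13993 in replicates 1 and 20024 and 21476 in replicates 2. A shared effect on single genes was not tested.

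The median ratio of the members moved to -0.40 in Il7r-led and -0.060 in Ccnb2-led cells when the members were used in clustering, and to -0.0069 in Ccnb2-led cells with doublets kept. The group difference in the share of cells was -1.32 points for Hk2 at 4000 UMIs, against -0.69 at 2000, and 9.84 points for Pdk1 with no thinning, against 1.44.

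Some log2 differences crossed 0. With equal weights over all T cells these were Ldhb (0.023), Slc16a3 (-0.012), Slc16a1 (-0.063), G6pdx (-0.048) and Pdha1 (-0.0016). Aldoc was -0.015 without Myc-led cells and -0.0021 without Myc-led and cycling cells. With 1 library left out at a time, Hk1 ranged from -0.10 (without C6M9 replicate 1) to 0.0066 (without M9 replicate 1), G6pdx from -0.042 to 0.14, Pgls from -0.081 to 0.25 and Rpia from -0.19 to 0.12 over all T cells. In S100a4-led cells Ldha ranged from -0.12 to 0.036 and Mif from -0.41 to 0.051, both positive only without M9 replicate 1. Pdk1 in Il7r-led cells ranged from -0.074 to 0.065 and was 0.030 with no filter, 0.069 with the members used in clustering and 0.32 with doublets kept.

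Depth limits the scarce members: Aldoc and Pfkm had 51 to 179 UMIs per library.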
